A study of Rattus norvegicus with 36 samples.

Results

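Promoters that gained DNA methylation in male rat germ cells before birth or in the first postnatal days are described here. The authors sorted regions that gained methylation into 3 groups, called early, continuous and late below, and annotated each genic region with the gene part it overlaps. Of the 28613 genic regions in these groups, 1124 (3.93%, 95% Wilson interval 3.71 to 4.16) were annotated as the promoter or transcription start of a gene, and these are the promoter regions below. There were 145 in the early group, 670 in the continuous group and 309 in the late group. The 27489 remaining genic regions, mostly introns and exons, serve as the comparison.

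The cells came from untreated male Sprague-Dawley rats of the genotype labelled GFP-GCS, in which all stages carry the transgene GCS-EGFP, a green fluorescent protein made in germ cells, by which the cells were sorted. Spermatozoa, unlike the sorted cells, had their DNA prepared with another kit. DNA was captured with a rat methylation panel and sequenced after bisulfite conversion. The stages, in order, were gonocytes at GD16, GD18 and GD20, PND5 spermatogonia, R1-8, R9-12, R13-14 and R15-17 spermatids, then spermatozoa, with 4 samples at each of the 9 stages. Whether the 4 samples came from different animals cannot be read from the labels. Each value below is the authors' mean level of a region at a stage. The lists hold no values of single samples and no read depth, so no level has an SD or an interval. A level of 50.8%, as at the Gzmn promoter at GD20, cannot tell a mixture of fully methylated and unmethylated cells from partly methylated DNA in every cell. The purity of the sorted cells could not be checked against marker expression, since only methylation was measured.

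Gonocytes are the fetal precursors of the spermatogenic stem cells. Their DNA methylation is erased when the germ line is set up and is written anew in male fetuses by de novo methyltransferases, before meiosis begins. Promoters rich in CpG, the CpG islands, usually stay unmethylated in this wave, whereas promoters poor in CpG are methylated with the rest of the genome.

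For illustration, the reference promoters of 9 member genes follow, from RefSeq on GRCr8. Each runs from 250 bases before to 50 bases after the start of transcription, 5′ to 3′ on the strand of the gene. Capitals mark CG dinucleotides, the sites that can be methylated. Coordinates in this paragraph are those of GRCr8. No source used here names the build of the listed regions, so the position of a region relative to its window is not known. Lcn5 (chr3:28871073-28871372, plus strand), Gpam (chr1:264175862-264176161, minus strand) and Angpt4 (chr3:160880480-160880779, plus strand) had the largest gains of the early, continuous and late groups among promoters with a gene symbol. Spata31f3 (chr5:61888959-61889258, minus strand), Pou6f1 (chr7:133565581-133565880, minus strand) and Mapk4 (chr18:69836789-69837088, minus strand) had regions with the most CpGs in the same groups, among genes with 1 promoter in the table and the same chromosome there. Kmo (chr13:90089271-90089570, plus strand), Asb18 (chr9:98043421-98043720, minus strand) and Cep295 (chr8:20475802-20476101, minus strand) had the largest spermatid differences among promoters with a symbol.
Lcn5: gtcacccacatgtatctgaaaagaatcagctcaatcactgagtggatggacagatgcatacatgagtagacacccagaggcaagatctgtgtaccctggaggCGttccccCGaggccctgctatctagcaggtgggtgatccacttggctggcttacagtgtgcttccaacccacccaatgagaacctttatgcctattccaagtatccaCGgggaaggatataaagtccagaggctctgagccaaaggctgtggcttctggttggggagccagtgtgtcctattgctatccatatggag
Spata31f3: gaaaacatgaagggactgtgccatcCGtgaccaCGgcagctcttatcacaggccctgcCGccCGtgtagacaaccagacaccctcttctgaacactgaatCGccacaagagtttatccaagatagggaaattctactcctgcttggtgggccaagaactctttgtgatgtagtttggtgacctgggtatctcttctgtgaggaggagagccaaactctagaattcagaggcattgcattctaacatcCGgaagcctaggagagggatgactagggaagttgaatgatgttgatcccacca
Gpam: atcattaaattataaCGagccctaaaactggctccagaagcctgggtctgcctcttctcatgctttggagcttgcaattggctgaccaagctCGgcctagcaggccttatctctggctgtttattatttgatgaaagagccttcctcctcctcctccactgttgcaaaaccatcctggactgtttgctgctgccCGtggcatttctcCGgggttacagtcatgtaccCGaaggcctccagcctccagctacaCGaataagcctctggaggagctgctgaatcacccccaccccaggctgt
Pou6f1: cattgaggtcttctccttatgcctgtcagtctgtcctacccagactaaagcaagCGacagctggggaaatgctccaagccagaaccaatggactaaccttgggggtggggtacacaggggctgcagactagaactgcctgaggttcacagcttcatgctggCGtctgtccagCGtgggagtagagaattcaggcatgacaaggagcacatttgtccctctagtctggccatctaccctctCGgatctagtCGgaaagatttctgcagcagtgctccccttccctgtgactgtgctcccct
Angpt4: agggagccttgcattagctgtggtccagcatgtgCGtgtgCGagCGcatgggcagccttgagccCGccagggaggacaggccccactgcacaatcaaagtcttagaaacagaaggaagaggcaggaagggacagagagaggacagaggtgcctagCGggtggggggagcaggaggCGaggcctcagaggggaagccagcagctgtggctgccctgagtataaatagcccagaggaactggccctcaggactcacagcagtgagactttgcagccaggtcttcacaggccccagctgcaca
Mapk4: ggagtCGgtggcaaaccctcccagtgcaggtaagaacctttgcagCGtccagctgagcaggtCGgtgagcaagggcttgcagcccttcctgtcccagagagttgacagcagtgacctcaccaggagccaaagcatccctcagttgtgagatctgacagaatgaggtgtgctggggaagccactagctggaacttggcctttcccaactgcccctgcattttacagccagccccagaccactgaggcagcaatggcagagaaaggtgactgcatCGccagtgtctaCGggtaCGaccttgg
Kmo: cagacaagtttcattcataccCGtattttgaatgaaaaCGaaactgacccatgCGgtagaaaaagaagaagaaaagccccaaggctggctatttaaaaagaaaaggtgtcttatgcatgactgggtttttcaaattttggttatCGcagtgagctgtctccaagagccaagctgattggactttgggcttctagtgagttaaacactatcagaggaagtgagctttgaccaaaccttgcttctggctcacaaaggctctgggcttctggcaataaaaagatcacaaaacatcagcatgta
Asb18: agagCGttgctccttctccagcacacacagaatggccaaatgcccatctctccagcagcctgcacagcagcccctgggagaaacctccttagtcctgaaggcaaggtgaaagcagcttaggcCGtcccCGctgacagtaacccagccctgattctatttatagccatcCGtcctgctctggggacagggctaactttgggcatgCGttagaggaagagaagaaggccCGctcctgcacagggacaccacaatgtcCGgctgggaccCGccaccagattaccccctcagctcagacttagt
Cep295: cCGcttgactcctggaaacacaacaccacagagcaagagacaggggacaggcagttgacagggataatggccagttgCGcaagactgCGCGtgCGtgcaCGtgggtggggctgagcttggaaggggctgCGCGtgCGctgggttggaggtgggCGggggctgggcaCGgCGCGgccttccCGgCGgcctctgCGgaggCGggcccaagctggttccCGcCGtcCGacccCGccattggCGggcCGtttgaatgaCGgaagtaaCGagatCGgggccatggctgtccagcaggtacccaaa
Except in Cep295, these windows hold few CGs, from 3 in Lcn5 to 8 in Asb18; the Cep295 window holds 26. The ratio of observed to expected CG, which allows for base composition, was 0.803 in Cep295 and between 0.15 and 0.331 in the others. These windows do not stand for the listed regions, which can be longer and hold more CpGs. The regions of Spata31f3, Pou6f1 and Mapk4 had 22, 37 and 42 CpGs over 1552, 1197 and 1354 bp. Their windows hold 6, 5 and 6 CGs. The letters TATAAA, searched on both strands, are present in the windows of Lcn5, Angpt4 and Asb18, and in 13.1% of the 19005 protein-coding genes of the table.

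Early promoters gained most by GD20. Their median was 69.9% at GD20 (34.6 to 86.0%), against 6.7% at GD18 (1.7 to 13.7%). They were in the list of GD18 to GD20 and in no list of GD20 to PND5, so their PND5 level is not given. Lcn5, a lipocalin of the epididymis, was at 84.0% at GD20 and 8.2% at GD18. Sla2, an adaptor of lymphocyte receptors, was at 82.3% at GD20 and 6.6% at GD18. Agtpbp1, a carboxypeptidase that trims tubulin tails, was at 83.4% at GD20 and 8.2% at GD18. These 3 differed between the stages by 75.2 to 75.8 points. Kank1, Apoa5 and Klf13 completed the 6 largest early gains with a gene symbol, with 81.2%, 80.8% and 78.5% at GD20 and 6.6%, 6.7% and 5.4% at GD18. Kank1 encodes a regulator of the actin cytoskeleton, Apoa5 an apolipoprotein that lowers triglycerides and Klf13 a zinc finger transcription factor. A promoter on chromosome 2 without a symbol (201346206 to 201346387) gained more than any of them, 80 points, with 86.0% at GD20 and 6.0% at GD18, and one on chromosome 7 had 82.6% at GD20 and 7.4% at GD18. In the authors' deposited table the adjusted p for the 6 named promoters ran from 6.01e-21 for Lcn5 to 4.56e-11 for Klf13.

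Continuous promoters were partly methylated at GD20 and nearly fully methylated at PND5. Their medians were 4.95% at GD18 (0.7 to 13.9%), 51.5% at GD20 (32.7 to 68.8%) and 96.8% at PND5 (73.7 to 100%). Gpam, the mitochondrial acyltransferase that starts glycerolipid synthesis, had 1.7%, 38.1% and 98.7% at GD18, GD20 and PND5. Gzmn, a granzyme, had 3.0%, 50.8% and 99.3% at these stages. St3gal6, a sialyltransferase, had 3.7%, 66.1% and 100%. The order of the 3 stages was the same in each, and the level reached by GD20 differed most. Met, the receptor of hepatocyte growth factor, had 2.7%, 46.8% and 98.8%, and C9, the pore-forming complement component, 2.7%, 54.5% and 98.7%. Clec9a, a receptor of dendritic cells, had 3.7%, 46.0% and 99.6%. These 6 had the largest gains with a symbol, beside a promoter on chromosome 5 without one at 2.3%, 42.7% and 98.5%. Most of the gain at Gpam and Clec9a fell in the second step, with 60.6 and 53.6 points from GD20 to PND5 against 36.4 and 42.3 points from GD18 to GD20, and most of that at St3gal6 in the first.

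Late promoters were still low at GD20, and their levels at PND5 spread widely. Their median was 85.8% at PND5 (36.8 to 100%), against 22.7% at GD20 (0 to 38.9%). None was in the list of GD18 to GD20, which therefore gives no GD18 level for them. Angpt4, an angiopoietin that binds the endothelial receptor Tie2, was at 97.5% at PND5 and 4.7% at GD20, the largest gain of the group. Ifi47, a GTPase induced by interferon, was at 99.1% at PND5 and 13.6% at GD20. Grxcr1, a gene of inner ear hair bundles, was at 92.9% at PND5 and 8.2% at GD20. Haptoglobin (Hp) and Cyp4f18, a cytochrome P450 of fatty acid metabolism, gained 82.8 and 82.0 points, with 98.0% and 90.5% at PND5 against 15.2% and 8.5% at GD20. The second largest gain of the group, 87.5 points, belonged to a promoter on chromosome 19 without a symbol (38642620 to 38642724), with 87.5% at PND5 and a listed level of 0.0% at GD20. The olfactory receptor Or8b1 completed the 6 with a symbol, with 97.9% at PND5 and 15.4% at GD20, but its region lies on another chromosome than the gene of that name in the table of gene names, so its identity is uncertain. At the low end, 29 late promoters (9.39%, Wilson 6.61 to 13.2) were under 60% at PND5. The corresponding share was 12.1% in the other late genic regions (462 of 3822, Wilson 11.1 to 13.2), and 0 of 670 continuous promoters were that low. The lowest PND5 levels among the late promoters with a symbol, named here after their values were seen, were 36.8% at Btbd16, 38.4% at Ikzf5, a zinc finger factor of the Ikaros family, and 40.0% at each of Cd80, a costimulatory ligand of T cells, Or4d2 and Plppr5.

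The 2 steps chose the groups, so these levels describe the promoters and test nothing. The GD18 to GD20 list held 815 of the 1124 promoters, all as gains (85.5% of all genic regions of the groups), and the GD20 to PND5 list held 979, all as gains (83.0%). The smallest difference in these lists is 30 points, and Dao (30.0 points from GD18 to GD20), Crtam (30.1 points from GD20 to PND5), Psmb6l1 (30.5 points from GD18 to GD20) and Btbd16 (30.1 points from GD20 to PND5) stand just inside it. Regions just outside it were not used here. Levels of the promoters followed those of the other genic regions of their group closely. At GD20 the medians were 69.9% in early promoters and 71.3% in other early regions, 51.5% in continuous promoters and 53.3% in other continuous regions, and 22.7% in late promoters and 24.6% in other late regions.

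**Figure D1:**
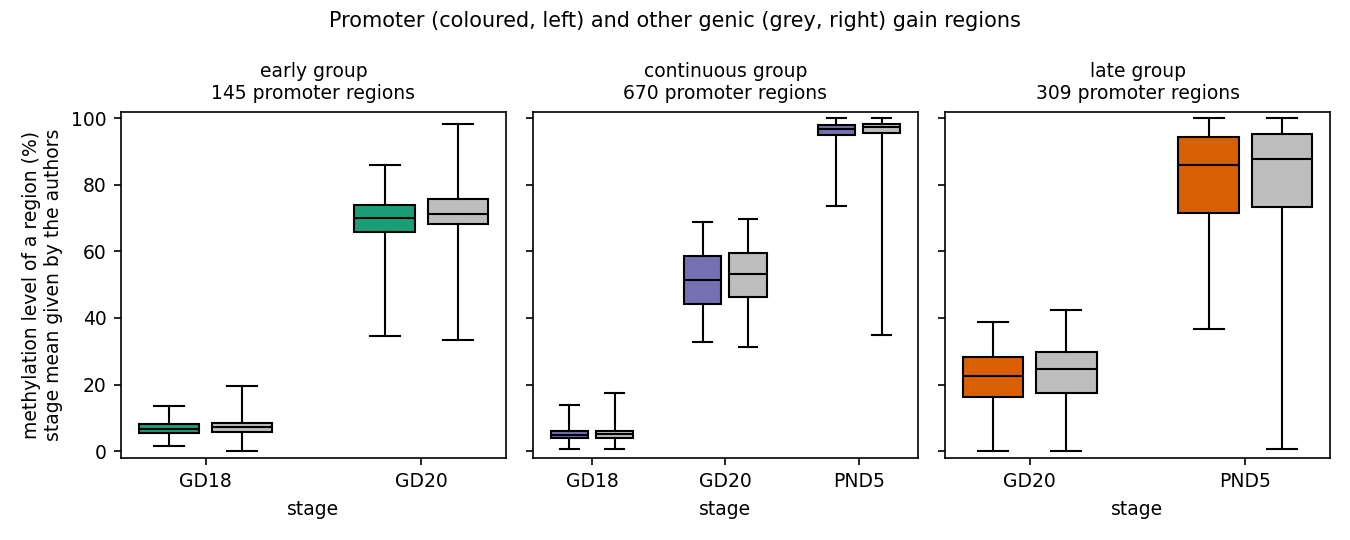
Methylation level of gain regions (percent, the authors' stage mean for each region) at GD18, GD20 and PND5 in the early, continuous and late groups, with promoter regions in colour at the left of each pair and other genic regions in grey at the right. Boxes span the quartiles with the median as a line, whiskers the lowest and highest region; the promoter boxes sit slightly lower than the grey ones at GD20 (51.5% against 53.3% in the continuous group), and late promoters spread from 36.8 to 100% at PND5.

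Promoters were placed in the late group more often than other genic regions were. Of the promoters, 27.5% were late (309 of 1124, Wilson 25 to 30.2), against 13.9% of the other genic regions (3822 of 27489, Wilson 13.5 to 14.3). The early group held 12.9% of the promoters (Wilson 11.1 to 15) and 17.2% of the other regions (Wilson 16.7 to 17.6). The other gene parts were not alike. Exons had 361 early, 2258 continuous and 799 late regions, introns 4083, 15151 and 2636, and 5′ UTRs 4, 27 and 14. Late regions were thus relatively more frequent in exons and 5′ UTRs than in introns, so a raised late share is not particular to promoters. Wilson intervals here and below cover counting error only and treat neighbouring regions as independent, which they are not. CpG density moved with the group: the median was 1.57, 1.75 and 2.02 CpGs per 100 bp in early, continuous and late promoters, and 1.83, 2.06 and 2.41 in the other early, continuous and late regions. Promoter regions were thus less dense than the other genic regions of the same group, although more of them were late. Within a band of density the late share of promoters stayed above that of the other regions. Under 1 CpG per 100 bp it was 20.2% in 94 promoters (Wilson 13.3 to 29.4) and 10.5% in 1580 other regions (Wilson 9.09 to 12.1). From 1 to 2 it was 23.0% in promoters (Wilson 19.7 to 26.6) and 10.7% in the others (Wilson 10.2 to 11.3). From 2 to 3 the shares were 30.3% in promoters (Wilson 25 to 36.2) and 14.0% in the others (Wilson 13.3 to 14.8). At 3 or more it was 40.3% in 201 promoters (Wilson 33.8 to 47.2) and 20.1% in 6580 other regions (Wilson 19.2 to 21.1). The other regions of each band pool all other gene parts, and the late share by gene part within a band was not computed.

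**Figure D2:**
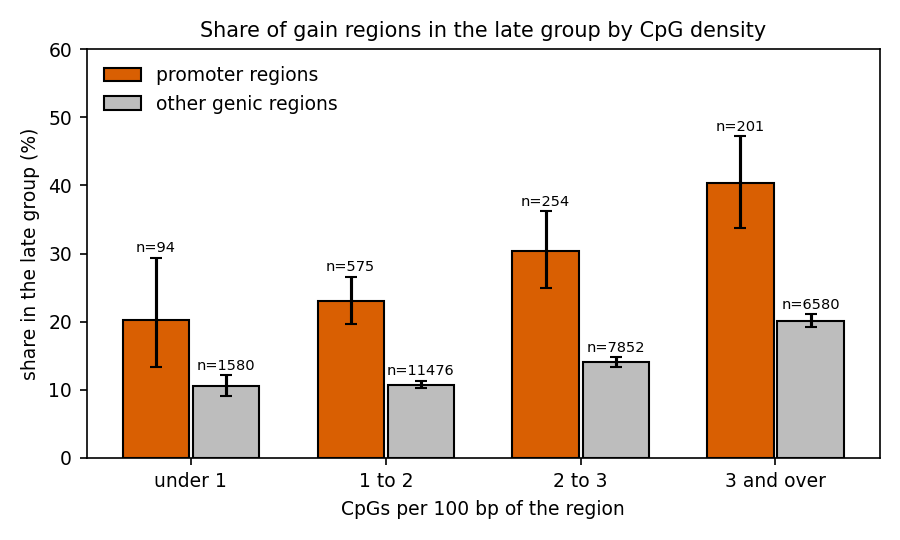
Share of gain regions in the late group (percent) by CpGs per 100 bp of the region, for promoter regions (orange, left) and other genic regions (grey, right), with 95% Wilson intervals and the number of regions above each bar. The share is higher in promoters in every band, 40.3% against 20.1% in the densest.

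The promoter regions with the most CpGs came from genes of varied function. In the early group these were Spata31f3, a gene of the testis-expressed Spata31 family (22 CpGs, 73.6% at GD20 and 5.2% at GD18), Anpep, the membrane aminopeptidase N (18 CpGs, 66.2% and 6.1%), St3gal1, a sialyltransferase (16 CpGs, 59.2% and 6.1%) and Cdk18, a cyclin-dependent kinase (14 CpGs, 66.4% and 5.5%). In the continuous group Pou6f1, a POU homeodomain factor, had 37 CpGs and levels of 5.1%, 38.3% and 96.2% at GD18, GD20 and PND5. S100z, a calcium-binding protein, had 34 CpGs and 3.8%, 54.6% and 94.9%. Rcan3, an inhibitor of calcineurin, had 33 CpGs and 4.7%, 55.3% and 97.5%, and Cpne3, a calcium-dependent lipid-binding protein, had 32 CpGs and 4.4%, 39.0% and 90.6%. In the late group Mapk4, an atypical MAP kinase, had 42 CpGs and 83.7% at PND5 against 31.8% at GD20. Iqcf3 had 21 CpGs and 91.7% at PND5 against 18.4% at GD20, and Trpm2, a calcium channel, 21 CpGs and 92.3% against 30.1%. The region with the most CpGs of all, 54, is annotated to the ribosomal protein gene Rpl8 and had 98.2% at PND5 against 17.1% at GD20. It lies on chromosome 3 of the list, while the table of gene names places Rpl8 on another chromosome, so its identity is uncertain too. The same mismatch held for 7 of the 1058 promoter regions with a symbol and for 11 of 25878 other genic regions with one.

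Reference promoters of late genes were poor in CG beside those of protein-coding genes. Of the 286 late genes, 229 (80.1%) had a promoter in the RefSeq table, and their windows of 300 bases held a median of 6 CGs (quartiles 4 to 9). The corresponding median was 21 (12 to 29) in the 5492 matched genes, of 6781, that had gain regions elsewhere in the gene and none in the promoter, and 12 in all 19005 protein-coding genes of the table. The median observed to expected ratio was 0.321 in late genes, 0.744 in genes with gains elsewhere only and 0.549 in all protein-coding genes. A ratio of at least 0.6 with at least 50% GC, a usual mark of a CpG island, was met by 14.0% of the late windows (Wilson 10.1 to 19). It was met by 66.3% of those of genes with gains elsewhere only (Wilson 65.1 to 67.6) and 43.5% of all protein-coding genes. Over all 27457 genes of the table the medians were lower, 7 CGs and a ratio of 0.417, and 33.7% met the mark. The listed promoter regions of the 32 late genes with such a window had a lower median level at PND5, 71.2%, than those of the other 197, 87.5%. At GD20 the medians were 20.1% and 23.0%. The mark belongs to the reference window, and where the listed region lies relative to it is not known. The listed regions themselves had median densities of 2.3 and 1.92 CpGs per 100 bp. The letters GGGCGG, searched on both strands and holding a CG of their own, were in 24.9% of the late windows. They were in 61.9% of those of genes with gains elsewhere only and in 43.1% of all protein-coding genes. TATAAA on either strand was in 13.5% of the late windows and in 6.54% of those with gains elsewhere only. The late share of TATAAA lies near the 13.1% of all protein-coding genes. For the early and continuous groups the same summary is void, because 79.0% and 78.7% of their genes matched, short of the 80% required.

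Most promoter regions could be tied to a gene: 1058 of 1124 (94.1%) had a symbol, and these named 1049 genes. Genes with a promoter region made up 13.4% of the 7830 genes named for any genic gain region. They were shorter, with a median length of 17.9 kb (quartiles 5.95 to 48.0), against 29.3 kb (12.6 to 71.4) in genes with gains elsewhere only. The share of a list's genes with a promoter region depends on which genes of the list have any genic gain region, so a second share, over all protein-coding genes of the list in the table of names, is given beside it. Over all protein-coding genes it was 4.53% (1049 of 23154). Genes that the capture panel did not cover could not be listed, and its coverage of each gene list was not tested. In each list up to 4 members with the largest gain are given, which favours continuous promoters, and in some a few more.

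Genes used late in sperm formation were among the members. Of 27 spermatid and sperm genes with a genic gain region, 9 had it in the promoter (33.3%, Wilson 18.6 to 52.2), or 14.5% of the 62 in the list. Tnp2, a transition protein that replaces histones in elongating spermatids, had 4.3%, 55.5% and 98.2% at GD18, GD20 and PND5. Prm1, the protamine that follows it, had 6.1%, 45.1% and 96.3%. Prm3, a gene of the same cluster, was slower, with 70.0% at PND5 and 9.0% at GD20. The 3 promoter regions lie within 8.58 kb of chromosome 10 (Prm1 at 4945026 to 4945499, Prm3 at 4950550 to 4951145 and Tnp2 at 4953431 to 4953606), and the middle one had the lowest levels and the most CpGs, 16 against 7 and 5. The testis-specific kinases Tssk2 and Tssk1b, whose regions lie 3.63 kb apart on chromosome 11, went together: 3.8%, 37.9% and 97.1% in Tssk2, and 4.6%, 39.3% and 96.3% in Tssk1b. The actin-like gene Actl9 had 6.0%, 37.6% and 98.1%. Odf1, of the outer dense fibres of the tail, and Actl7a, of the sperm head cytoskeleton, were early, with 77.2% and 74.3% at GD20 and 8.6% and 8.0% at GD18. Spaca4, an acrosome membrane gene, was late, with 95.8% at PND5 and 30.4% at GD20.

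Genes that act in the germ line itself or in its chromatin were seldom members. Of 23 germline and meiosis genes with a genic gain region, 1 had it in the promoter (4.35%, Wilson 0.772 to 21.0), or 1.56% of the 64 in the list: Syce3, a component of the synaptonemal complex, with 4.2%, 45.0% and 84.3% at GD18, GD20 and PND5. Of 21 pluripotency and spermatogonial stem cell genes it was 1, Lefty2, a Nodal inhibitor, with 5.7%, 62.4% and 97.8%. Of 34 DNA methylation and chromatin enzymes it was 0, which allows a share of up to 10.2% (Wilson). Of 17 imprinted genes it was 1, Ddc, the dopa decarboxylase that is imprinted in mouse, with both of its promoter regions continuous. The intervals of the germline, stem cell and imprinted lists include 13.4%. Their second shares were 2.44% of 41 stem cell and 2.38% of 42 imprinted genes.

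Promoters of genes used in blood, immune and endothelial cells were members more often, with 10 of 26 (38.5%, Wilson 22.4 to 57.5), or 19.2% of the 52 in the list. Ptprc, the leukocyte antigen CD45, had 4.3%, 45.5% and 97.3% at GD18, GD20 and PND5. Vwf, von Willebrand factor of endothelium, had 2.6%, 62.0% and 97.0%, and Btk, a kinase of B cells on chromosome X, 7.4%, 59.8% and 98.8%. These 3, taken for their large gains, ended within 2 points of each other at PND5. Continuous promoters as a whole were also close together there, with quartiles of 94.8 to 97.9%. Klf1, the erythroid factor, was late, at 98.6% at PND5 and 30.9% at GD20. Of 56 cytokines, chemokines and their receptors, 22 were members (39.3%, Wilson 27.6 to 52.4), or 16.5% of 133. Il23a had 5.0%, 65.8% and 99.0%, Il22 had 3.6%, 45.8% and 97.3%, Il22ra2 3.3%, 61.9% and 96.2%, and Cxcl9 3.8%, 45.2% and 96.6%. These 4, taken for their large gains, were continuous, as were 13 of the list's promoter regions, while 4 were early and 5 late. Cxcl14, named after its values were seen, was the lowest at PND5, with 55.1% at PND5 and 14.9% at GD20.

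Olfactory receptors gave the highest share among genes with gains, and a low one among all genes of their list. Of 58 olfactory and vomeronasal receptors with a genic gain region, 42 had it in the promoter (72.4%, Wilson 59.8 to 82.2), while these 42 were 2.87% of the 1461 receptors in the list, below the 4.53% of all protein-coding genes. The reading frame of olfactory receptor genes sits in a single exon. Reads or annotations may be split among near-identical copies of either kind of receptor, so single receptors are uncertain. Olr36 had 4.1%, 53.4% and 98.4% at GD18, GD20 and PND5, Or1f31 3.9%, 42.4% and 98.2%, and Or6ae1 5.6%, 55.4% and 99.7%. Vom2r23, with 2.2%, 40.9% and 97.8%, is one of the 7 regions on another chromosome than the gene of that name. Of 43 other G protein-coupled receptors 17 were members (39.5%, Wilson 26.4 to 54.4), or 11.1% of 153. Among them were Gpr18 (4.1%, 55.0% and 99.2%), the trace amine receptor Taar7a (2.9%, 41.0% and 97.6%), the bitter taste receptor Tas2r106 (2.7%, 36.2% and 95.3%) and Gpr17 (5.9%, 47.8% and 98.1%).

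Keratins, claudins and proteases also had shares above that of all named genes, while solute carriers and cytochrome P450 genes had intervals that include it. Of 44 keratins and claudins 15 were members (34.1%, Wilson 21.9 to 48.9), or 17.6% of 85, led by the hair keratins Krt84 (5.1%, 51.0% and 99.3% at GD18, GD20 and PND5), Krt39 (3.7%, 38.9% and 97.4%) and Krt35 (6.4%, 56.3% and 98.6%), with the claudin Cldn22 at 3.4%, 38.5% and 95.8%. None of the 15 was early, a group that held 12.9% of all promoters, and several other lists had no early member either. Of 36 serpins and proteases 11 were members (30.6%, Wilson 18.0 to 46.9), or 9.65% of 114, among them the kallikreins Klk12 (4.5%, 36.9% and 98.9%) and Klk6 (6.6%, 48.3% and 98.4%), Prss3b (3.5%, 44.0% and 97.2%) and Tmprss3 (3.3%, 41.8% and 97.0%). Of 202 solute carriers 29 were members (14.4%, Wilson 10.2 to 19.9), close to the share of all named genes, but 7.59% of the 382 in the list, above the 4.53% of all protein-coding genes. Slc12a3, the thiazide-sensitive salt transporter of kidney, had 5.1%, 62.1% and 99.8%, Slc38a8 3.1%, 35.2% and 97.7%, Slc10a6 5.5%, 45.3% and 99.7%, and Slc16a5 4.0%, 60.6% and 97.7%. Of 24 cytochrome P450 and UDP-glucuronosyltransferase genes 5 were members (20.8%, Wilson 9.24 to 40.5), or 4.5% of 111, at the level of all protein-coding genes. Cyp7a1, the rate-limiting enzyme of bile acid synthesis, had 4.4%, 53.1% and 96.7%. Cyp2d3 was continuous (4.8%, 62.6% and 98.5%), whereas its neighbour Cyp2d1, a close paralog with which reads may be shared, was early (75.5% at GD20 and 9.2% at GD18).

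For genes of the synapse, of development and of somatic testis cells the first share had an interval that includes 13.4%, and the second share lay on either side of 4.53%. Of 99 synapse, axon guidance and ion channel genes 10 were members (10.1%, Wilson 5.58 to 17.6), or 7.46% of 134. The muscle acetylcholine receptor subunit Chrna1 had 4.6%, 55.1% and 98.0% at GD18, GD20 and PND5, Sema4a, a semaphorin, 5.3%, 48.7% and 98.2%, and Syt2, a synaptotagmin, 4.8%, 48.2% and 96.9%. The glutamate receptor Grm8 had 3.4%, 41.1% and 94.5%. Of 40 developmental transcription factors 5 were members (12.5%, Wilson 5.46 to 26.1), or 3.12% of 160. Sox6, a factor of muscle, cartilage and red cells, had 3.5%, 44.2% and 97.1%, and Foxn1, the factor of thymic epithelium, 6.7%, 53.7% and 96.9%. The muscle factors Myf5 and Myf6, whose regions lie 7.79 kb apart on chromosome 7, were both late, with 80% and 49.6% at PND5 and 22.3% and 18.9% at GD20. Of 15 genes of somatic testis cells 2 were members (13.3%, Wilson 3.74 to 37.9), or 6.25% of 32: Amh, the anti-Müllerian hormone of Sertoli cells, with 82.3% at PND5 and 31.8% at GD20, and Inhba, an activin subunit, with 4.1%, 44.2% and 96.3%.

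In the remaining lists the interval of the first share also includes 13.4%. Of 22 protocadherins and cadherins 4 were members (18.2%, Wilson 7.31 to 38.5), or 11.4% of 35: Pcdh12 (2.9%, 37.0% and 97.0% at GD18, GD20 and PND5), Cdh17 (4.9%, 56.2% and 97.7%), the late Cdh13 (84.1% at PND5 and 27.2% at GD20) and the early Cdh26 (61.1% at GD20 and 8.3% at GD18). Of 53 coiled-coil, cilium and axoneme genes 9 were members (17.0%, Wilson 9.2 to 29.2), or 4.19% of 215, with Ccdc190 at 5.0%, 39.7% and 98.3%, Ccdc27 at 3.7%, 38.4% and 97.0%, Cfap141 at 4.1%, 53.9% and 97.3% and Cfap276 at 3.9%, 39.3% and 96.5%. Of 77 genes named as transmembrane proteins 9 were members (11.7%, Wilson 6.27 to 20.7), or 3.66% of 246, among them Tmem88b with 3.3%, 62.2% and 97.9%. Of 70 zinc finger genes 6 were members (8.57%, Wilson 3.99 to 17.5), or 1.45% of 414, among them Zfp217 with 4.0%, 41.2% and 97.2%. No microRNA gene was named in the annotation of gain regions.

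**Figure D3:**
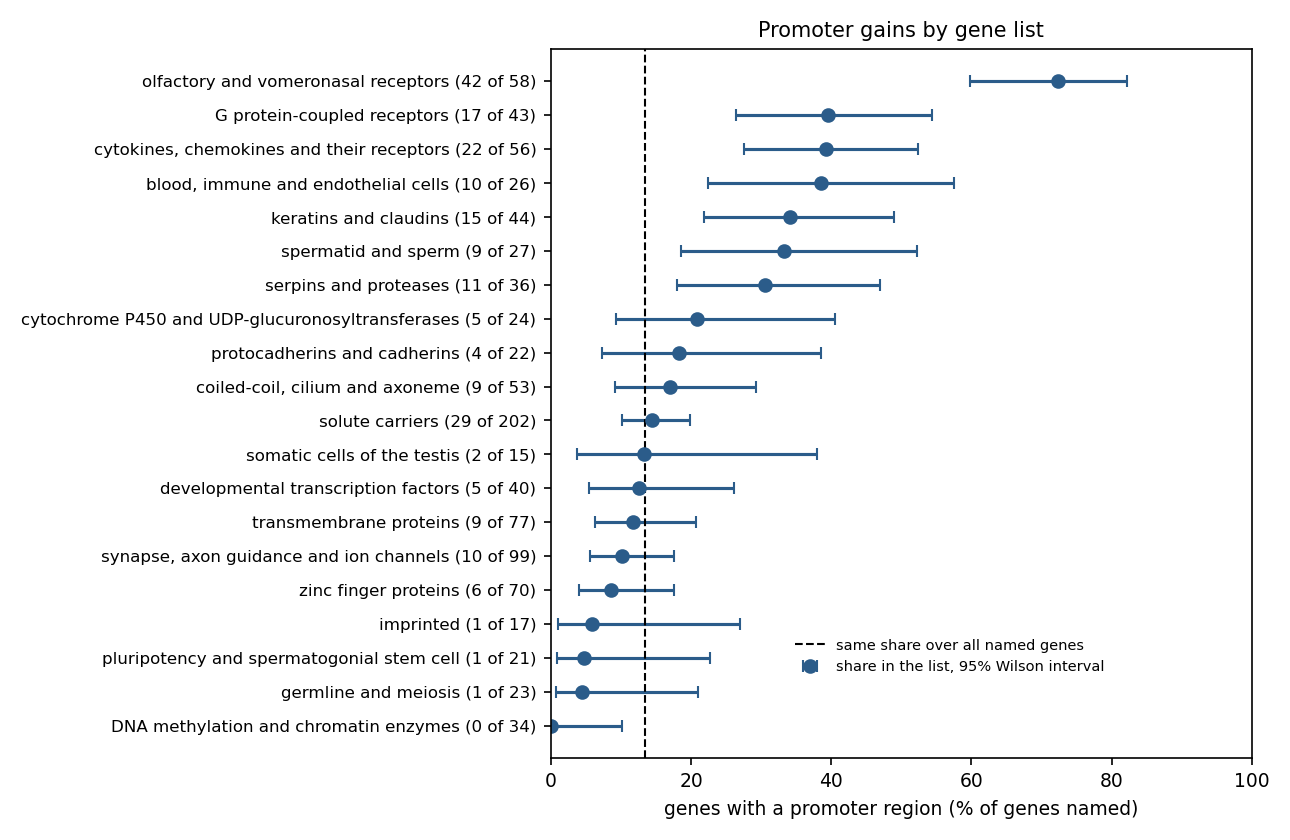
Share of the genes of each list that had a promoter region among those named for any genic gain region (percent, points with 95% Wilson intervals; counts in brackets), with the share over all named genes, 13.4%, as a dashed line. Olfactory and vomeronasal receptors stand highest at 72.4%, although only 2.87% of all such genes had a promoter region, and DNA methylation and chromatin enzymes stand at 0 of 34.

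Some genes had several promoter regions, and in Plec and Ascl3 these did not keep step. Plec, the cytoskeletal linker plectin, which has several alternative first exons, had 5 promoter regions within 13.8 kb of chromosome 7. The late ones were at 92.6% at PND5 and 10.7% at GD20 (117265320 to 117265845) and at 81.0% and 25.4% (117258433 to 117258909). The early one (117255491 to 117255813) was at 75.1% at GD20 and 6.7% at GD18, and the 2 continuous ones were at 51.9% and 49.6% at GD20 and 98.6% and 96.8% at PND5. Levels at GD20 in this one gene thus ran from 10.7% to 75.1%. At Ascl3, a bHLH factor of salivary glands, regions only 161 bp apart on chromosome 1 differed: 174352183 to 174353187 had 5.2%, 50.1% and 94.4% at GD18, GD20 and PND5, while 174351908 to 174352021, with 8 CpGs, had 47.2% at PND5 and 15.7% at GD20. In Ciita, Ddc and Dlgap1 the 2 promoter regions were alike at GD20, with 66.0% and 67.7%, 43.9% and 52.9%, and 59.2% and 56.8%.

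The promoter and the rest of the gene were compared in the 548 genes with both kinds of region; 501 further genes had gain regions in the promoter alone. At GD20 the promoter was higher in 245 of these genes, lower in 302 and equal in 1, with a median difference of -3.0 points (quartiles -17.2 to 10.1). This median had the opposite sign, 0.2 points, when the region with the most CpGs of each kind was taken in place of the median of regions. GD20 levels also chose the groups, so by group the differences only describe them: 19 points in 64 genes with an early promoter, 1.38 points in 340 with a continuous one and -24.9 points in 141 with a late one. In the late promoters the rest of the gene stood at a median of 48.6%, against 23.6% in the promoter. At PND5 the late promoters were a median of 7.8 points below the rest of the gene (difference -7.8 points, 136 genes with both levels). The step from GD20 to PND5 chose the groups too, so this difference also only describes them. Late regions of either kind ended lower, with PND5 medians of 85.8% in promoters and 87.6% in other regions. In the continuous group these were 96.8% and 97.2%.

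The extremes at GD20 were far apart. Hs3st6, a heparan sulfate sulfotransferase, was at 7.6% in the promoter and 66.7% in the rest of the gene, and at 49.0% and 98.8% at PND5. Ikzf5 was at 2.3% in the promoter and 57.9% elsewhere, with 38.4% and 98.0% at PND5. Gkap1, an anchoring protein of testis, was at 13.5% in the promoter and 69.5% elsewhere, Il1r2, the decoy receptor of interleukin 1, at 24.2% and 82.7%, and Thbs2, a thrombospondin, at 20% and 75.9%. At Thbs2 the difference shrank to -4.4 points between the regions with most CpGs. The opposite order held at Osgin1, a gene induced by oxidative stress, with 65.2% in the promoter and 7.9% elsewhere, and at Crtam, a receptor of cytotoxic T cells, with 68.1% and 14.6%. Tsga13, a testis-specific gene, had 72.2% in the promoter and 21.6% elsewhere, Eppin, a protease inhibitor of the sperm surface, 72.0% and 21.7%, and Musk, the receptor kinase of the neuromuscular junction, 57.3% and 11.2%.

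**Figure D4:**
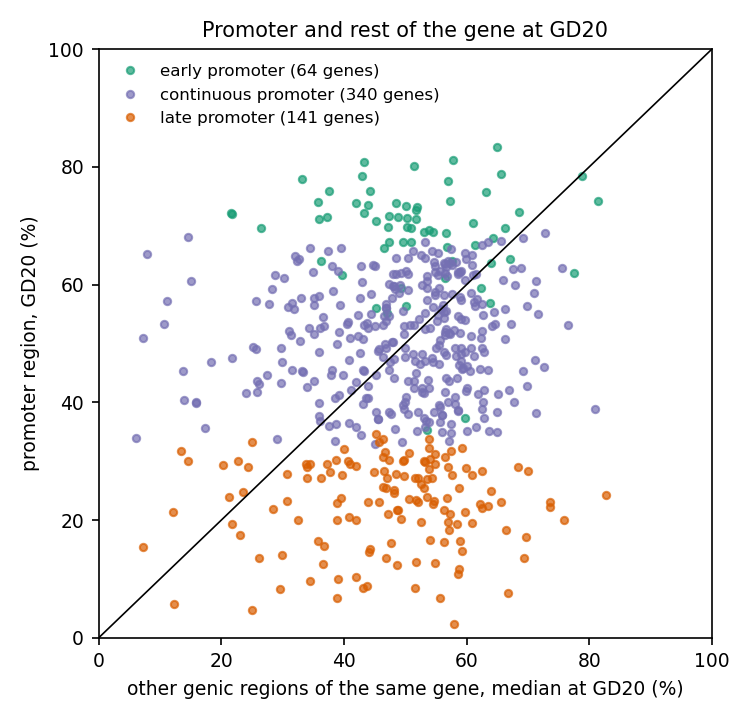
Methylation at GD20 (percent) of the promoter region of a gene against the median of its other genic gain regions, 1 point per gene, coloured by the group of the promoter; the line marks equal levels. Late promoters (orange) lie mostly below the line, with a median of 23.6% against 48.6% in the rest of the gene; 3 genes whose promoters fell in different groups are not drawn.

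Few of the promoters were listed again in spermatids, and the lists of that period were not used to choose them. In at least 1 of the 4 spermatid lists were 99 promoters (8.81%, Wilson 7.29 to 10.6), beside 6.46% of all genic gain regions. By group it was 4.14% of early (Wilson 1.91 to 8.73), 6.27% of continuous (Wilson 4.67 to 8.37) and 16.5% of late promoters (Wilson 12.8 to 21.1). In the other genic regions it was 3.99% in the early, 5.06% in the continuous and 15.8% in the late group, so the shares of promoters lie near the background of their own groups. Spermatid lists start at a smaller difference, 10 points, than the fetal and neonatal ones, and consecutive lists share a stage mean.

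By step, the R1-8 to R9-12 list held 33 promoters as losses (1.54% of all genic gain regions were) and 2 as gains (0.402%). Losses were 2.94% of all promoters (Wilson 2.1 to 4.09) and 1.48% of the other genic regions (Wilson 1.35 to 1.63). Gains were 0.178% of promoters (Wilson 0.0488 to 0.646) and 0.411% of the others (Wilson 0.342 to 0.494). The lost ones had a median of 83.0% at R9-12, against 96.3% at R1-8. The R9-12 to R13-14 list held 23 as losses (2.36%) and 30 as gains (1.27%). Gains were thus 2.67% of all promoters (Wilson 1.88 to 3.78), against 1.22% of the other genic regions (Wilson 1.09 to 1.35), while losses were 2.05% of promoters (Wilson 1.37 to 3.05) and 2.38% of the others (Wilson 2.2 to 2.56). The gains at that step had a median of 94.8% at R13-14, against 80.3% at R9-12. The R13-14 to R15-17 list held 11 as losses (0.336%) and 33 as gains (2.73%). Here losses were 0.979% of all promoters (Wilson 0.547 to 1.74) and 0.309% of the other genic regions (Wilson 0.25 to 0.382), and gains 2.94% of promoters (Wilson 2.1 to 4.09) and 2.72% of the others (Wilson 2.54 to 2.92). From R15-17 to spermatozoa 9 were losses (0.437%) and 8 were gains (0.412%). At this step losses were 0.801% of promoters (Wilson 0.422 to 1.51) and 0.422% of the others (Wilson 0.352 to 0.506). Gains were 0.712% of promoters (Wilson 0.361 to 1.4) and 0.4% of the others (Wilson 0.332 to 0.482). These shares by step were not split by gain group, although more of the promoters were late and late regions were listed more often. Of the listed promoters, 28 of 53 at R9-12 to R13-14 and 23 of 44 at R13-14 to R15-17 were late. The median size of the listed differences was 12.9, 14.0, 13.8 and 14.1 points at the 4 steps in order.

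The 10 largest spermatid differences among promoters with a symbol were at regions of 5 to 9 CpGs, and 8 of the 10 were late. The late promoter on chromosome 19 without a symbol, with 9 CpGs, had the second largest difference of all, with 50.8% at R13-14 against 84.5% at R9-12, and an adjusted p of 1.34e-05 in the authors' deposited table. Kmo, the kynurenine 3-monooxygenase, had 80.5%, 44.2% and 68.5% at R9-12, R13-14 and R15-17, after 44.1% at PND5 and 8.8% at GD20. In the authors' deposited table the adjusted p was 2.03e-04 for the first of these steps and 1.53e-02 for the second. Asb18 was at 77.9% at R9-12 against 50.5% at R1-8, and at 48.7% at R15-17 against 81.0% at R13-14. Cep295, a centriole protein, had 70.8%, 39.1% and 63.0% at R13-14, R15-17 and in spermatozoa. Each of these regions went down at one step and up at another. Ahrr, the repressor of the aryl hydrocarbon receptor, was at 89.0% at R15-17 and 60.1% at R13-14, with an adjusted p of 3.20e-02 in the authors' deposited table. Pbld1, the only early one of the 10 named, had 63.7%, 80.8%, 54.4% and 71.2% from R9-12 to spermatozoa. Hs3st6 was at 80.9% at R13-14 and 55.0% at R9-12, and Tacc1, a centrosomal coiled-coil protein, at 95.8% at R13-14 and 74.9% at R9-12.

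Some stayed at low or intermediate levels. Tmem140, at 61.7% at PND5 and 8.3% at GD20, had 14.0%, 35.4% and 22.7% at R13-14, R15-17 and in spermatozoa. Or4d2 had 40.4%, 64.6% and 46.1% at the same stages. Rxfp2, the receptor of the hormone that drives testis descent, dipped from a high level, with 96.3%, 75.7% and 94.7% at R1-8, R9-12 and R13-14. The promoter of Prm3, with 16 CpGs, had 86.3%, 72.6% and 91.3% at R9-12, R13-14 and R15-17. Of the 13 promoters with a listed difference of at least 20 points, 10 had only 5 or 6 CpGs (76.9%), against 33 of the 86 with smaller ones (38.4%) and 468 of all 1124 (41.6%), and 10 of the 13 were late. With few CpGs and an unknown read depth, the part of counting error in these values was not tested.

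**Figure D5:**
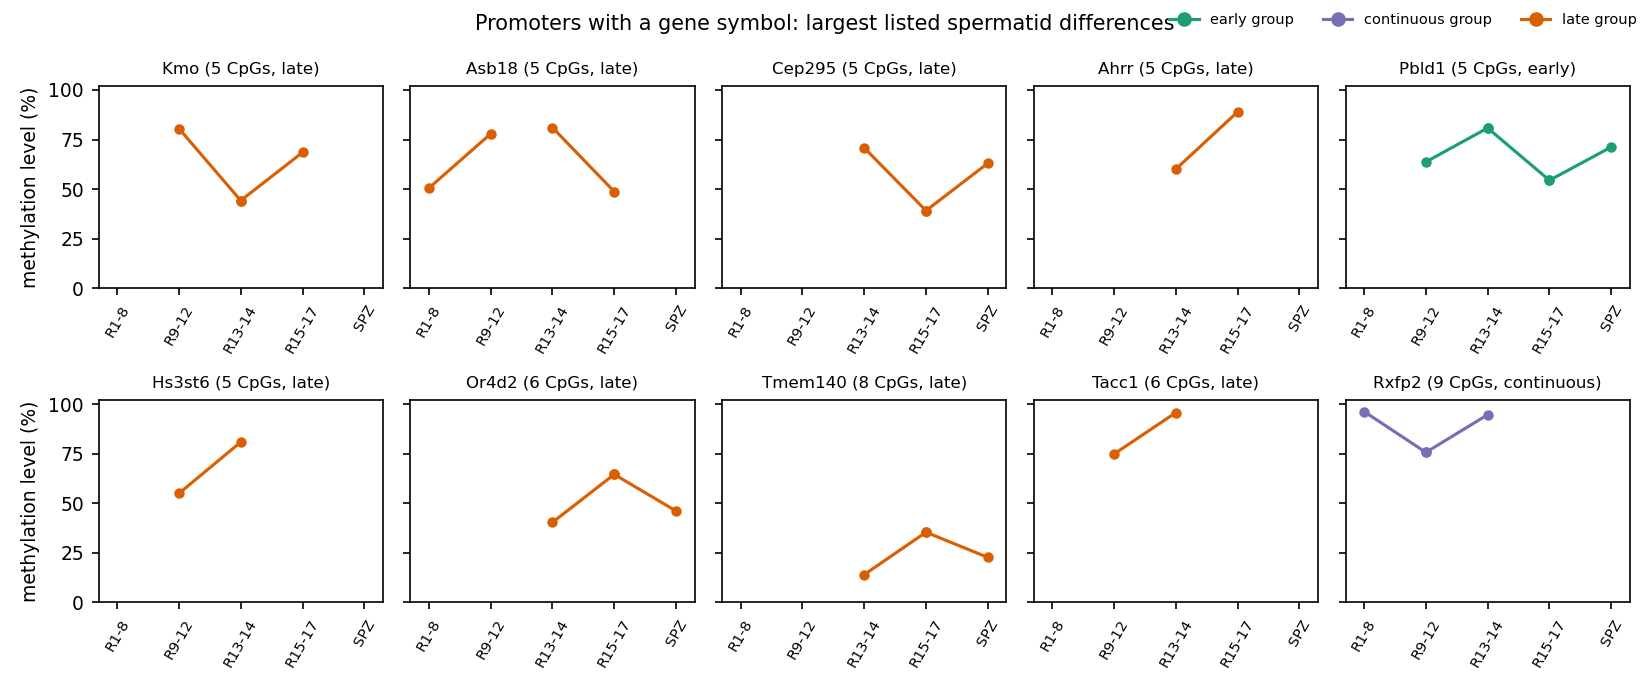
Methylation level (percent, the authors' stage mean) of the 10 promoter regions with a gene symbol and the largest listed differences in spermatids, against the stages R1-8, R9-12, R13-14, R15-17 and spermatozoa (SPZ); lines join the stages of a listed comparison, colours give the gain group, and a stage without a point is in no list. Kmo, Cep295 and Rxfp2 show a dip and a return, and Tmem140 stays lowest, at 14.0 to 35.4%.

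Before the gains, 2 promoters were in the list of losses from GD16 to GD18, a list that held 0.252% of all genic gain regions. The C13h1orf116 promoter (chromosome 13, 47453451 to 47453794) had 35.5%, 5.1%, 34.8% and 93.6% at GD16, GD18, GD20 and PND5. The second, on chromosome 7 (11700338 to 11700460) with no symbol in the table of names, had 46.6%, 5.4%, 52.9% and 99.3%. Both lost methylation by GD18 and were above their GD16 level at PND5.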

How the data were processed

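DNA methylation was measured in 36 samples of 9 stages, with the title giving the stage. Alignment and methylation tools were Bowtie2 and Bismark 0.19.0 per the submitters' processing notes, and per the labels and the series' design text, levels per locus were cut into segments of at least 50 bp before differential regions were searched; 3 members are shorter. No source used here gives the genome build, coverage minimum or pooling of samples. The authors deposited 7 region lists with the mean level of each stage as a fraction, printed here in percent, the difference, the number of CpGs, and the length. The p-value and adjusted p-value of a test per region between the stages are the authors' deposited values; no source used here says which observations that test compared.

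Members are rows of the 3 annotated genic sheets whose annotation begins with promoter. They were joined to the lists by exact coordinates, which gave the same matches as an overlap of at least 1 bp. Coordinates are those of the lists, counted from 1. Differences are later minus earlier stage. Transcript IDs were matched to symbols in a RefSeq table of GRCr8, which served for names, gene length and promoter sequence; 66 members had no match. Where a gene had several promoters in the table, the first was used. Pandas 2.3.3 and scipy 1.17.1 were used under Python 3.11.15, with code checked on simulated data. Because stage means carry no sample values, no test over samples was made; shares have 95% Wilson intervals. 0 columns of single samples were left unused.

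Named promoters have a gene symbol; they are, per group, the 6 largest gains and the 4 with most CpGs, the 10 largest spermatid differences, up to 4 per gene list, the 5 genes with most promoter regions, the 5 largest differences of each sign between promoter and rest of the gene, and members of the GD16 to GD18 list; regions without a symbol that exceed the named ones are given without a name, and further members are given as part of small lists or were named after their values were seen. Members, gene lists and rules were chosen with earlier results of these data known. Alternatives were a CpG minimum of 5 or 10, an adjusted p of at most 0.001, 1 region per gene, autosomes only, a reciprocal overlap of 50%, a spermatid difference of at least 20 points, regions with most CpGs, leaving out regions on another chromosome than their gene, and genes with 1 promoter in the table.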

Additional observations from a re-analysis of the deposited data

How the results depend on the processing

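The median GD20 difference between promoter and rest of the gene had the opposite sign, 0.2 points against -3.0, with the region of most CpGs of each kind; the cause was not tested. A minimum of 10 CpGs, chosen after seeing the data, left 19 early, 208 continuous and 70 late promoters, which made up 1.61%, 2.41% and 4.6% of the genic regions of their groups. Early medians were then 63.9% at GD20 and 6.1% at GD18, CpG densities 1.88, 1.95 and 2.21 per 100 bp, and the shares in a spermatid list 0.0% of early and 22.9% of late promoters. With a spermatid difference of at least 20 points the shares were 0.69% of early, 0.299% of continuous, 3.24% of late and 1.16% of all promoters, since fewer differences count. The other 67 values computed under the alternatives, among them all those with an adjusted p of at most 0.001, 1 region per gene or autosomes only, kept their direction and moved less than the limit set for a change. Every promoter had at least 5 CpGs, so that minimum removed none, and its 21 values among the 67 test nothing. Nor do the 4 values with a reciprocal overlap of 50%, since exact coordinates and an overlap of 1 bp gave the same matches. Alternatives that keep only regions near the transcription start were not run, since no distance to it was used. No paired analysis was possible because the values are stage means and no test over samples was made; leaving out single samples could not be run for that reason. Read depth is unknown, so its effect on any level was not tested.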

Other observations

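Promoters made up a larger share of the gain regions on chromosome X than on the autosomes. Of 152 genic gain regions on X, 19 were promoters (12.5%, Wilson 8.15 to 18.7), against 1105 of 28461 on autosomes (3.88%, Wilson 3.66 to 4.11). Of the 19, 3 were early, 11 continuous and 5 late. Foxp3, the factor of regulatory T cells, had 3.9%, 46.8% and 97.1% at GD18, GD20 and PND5. Rhox8, a homeobox gene of the reproductive tract, had 65.9% at GD20 and 7.3% at GD18, and Gjb1, a connexin, 67.3% and 9.6%. Fgf13 was at 97.3% at PND5 and 24.5% at GD20, while Nyx, a gene of retinal signalling, was at 54.1% and 17.2%, Ubl4a at 51.1% and 5.7% and Praf2 at 71.1% and 25.5%. The comparison was chosen after its values were seen, and the part of the capture design in it was not tested.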
